A study of Mus musculus with 18 samples.

Results

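Ltf, Lcn2, Camp, Ngp and Lyz2 encode cargo proteins of neutrophil granules, and their transcripts were followed with age in splenic neutrophils of lupus-prone mice. The 5 genes were chosen by name, as the rows of the count table that carry these symbols, out of 17941 symbols in all, and each of the 5 passed the filter on low counts. The cells came from untreated female mice of the strain NZBWF1/J, a hybrid of New Zealand parents that develops lupus-like autoimmune disease as it ages. There were 3 groups that differed in age alone by their labels, 14, 20 and 26 weeks, with 6 biological replicates each and 1 RNA-seq library per replicate. Each age was a separate set of mice and the labels give no batch, so age and whatever else differed between the 3 sets cannot be told apart. No group of another strain entered, so age and the disease that comes with it cannot be told apart either. Neutrophils were taken by flow cytometry from total splenocytes as single DAPI-negative cells carrying Ly6B, CD11b and Ly6G at the surface, with intermediate Ly6C.

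Neutrophils build their granules one kind after another as they mature in the bone marrow. Primary granules are filled at the promyelocyte stage, and secondary granules, also called specific granules, are filled at the myelocyte and metamyelocyte stages, when the transcription factor C/EBP-epsilon drives their cargo genes. Transcription of that cargo mostly stops before the cell leaves the marrow, while the stored proteins remain. Lactoferrin (Ltf) binds iron, and lipocalin 2 (Lcn2) captures the siderophores with which bacteria collect it. Camp encodes the precursor of the cathelicidin peptide CRAMP, which damages microbial membranes. Ngp encodes neutrophilic granule protein, a relative of the cystatins. Lyz2 encodes lysozyme, which cuts bacterial cell walls, is stored in more than one kind of granule and is also made by monocytes and macrophages.

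In GRCm38 with GENCODE M21 models, Camp, Ngp and Ltf lie on chromosome 9, at 109849617 to 109847379 on the reverse strand, 110419747 to 110423012 on the forward strand and 111019271 to 111042767 on the forward strand. Lcn2 lies on chromosome 2 at 32384633 to 32388252 and Lyz2 on chromosome 10 at 117277331 to 117282321, both on the reverse strand. No other gene model overlaps any of them. Their principal transcripts span 2743 bases for Ltf, 1316 for Lyz2, 1222 for Ngp, 915 for Lcn2 and 758 for Camp.

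Because these genes are known targets of C/EBP factors and PU.1, the 250 bases before each RefSeq start (GRCm38.p6) were searched on both strands for TTGCNNAA, a C/EBP core, and GAGGAA, a PU.1 core, which do not overlap in the matches found. Ltf held 1 match to each, Lcn2 held 1 match to each, Ngp held 2 C/EBP matches, and Camp and Lyz2 held neither. Of 32851 RefSeq promoter windows of the same length, 9.56% held the C/EBP core and 23.3% held the PU.1 core, and 0.721% held the C/EBP core at least 2 times. The upstream sequences of Ltf and Ngp are shown because both genes lie on the forward strand of chromosome 9 and both carry a C/EBP match. Capitals mark the matches, and bases that GENCODE places in an exon of the gene are left off at the 3′ end. The second Ngp match falls in the bases left off. By the same rule all 250 bases searched for Lcn2 would be left off, with 161 for Camp and 49 for Lyz2. Both Lcn2 matches thus lie inside its GENCODE model and not upstream of it. The Ltf bases lie at chr9:111019042-111019270, with the C/EBP match at -75 and the PU.1 match at -157 from the start, both read on the other strand. The Ngp bases lie at chr9:110419558-110419746, with the C/EBP match at -138. A match describes these letters only.
Ltf: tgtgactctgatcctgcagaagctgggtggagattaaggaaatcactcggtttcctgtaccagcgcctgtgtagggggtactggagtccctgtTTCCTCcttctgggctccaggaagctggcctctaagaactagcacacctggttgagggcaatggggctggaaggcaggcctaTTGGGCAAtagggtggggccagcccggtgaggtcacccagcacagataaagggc
Ngp: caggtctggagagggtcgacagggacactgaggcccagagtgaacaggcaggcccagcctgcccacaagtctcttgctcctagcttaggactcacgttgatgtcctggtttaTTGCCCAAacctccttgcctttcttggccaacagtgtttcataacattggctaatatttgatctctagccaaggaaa

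Libraries held 5546624 to 17256379 counts, and 10104 genes had enough counts to be tested. All 8 neutrophil marker genes examined were detected at every age, with a summed level of 34358 to 43774 CPM (counts scaled to library size with TMM factors) at 14 weeks, 19114 to 27152 at 20 weeks and 34310 to 136444 at 26 weeks. The markers did not move alike. S100a9 averaged 10344, 4185 and 28294 CPM at the 3 ages and Mmp9 11615, 7190 and 6210 CPM. Csf3r averaged 2027, 4689 and 1439 CPM and Cxcr2 1842, 1703 and 1209 CPM. By the edgeR test given below, 1 marker was called higher and 5 lower from 14 to 20 weeks. From 14 to 26 weeks 3 were higher and 2 lower, and from 20 to 26 weeks 5 and 1. Transcripts of Ly6g, whose protein was part of the sort gate, averaged 1245 ± 176, 481 ± 216 and 2829 ± 1248 CPM (SD, n = 6) at the 3 ages. Replicate 3 of 20 weeks stood apart from the other libraries on the first principal component and had the fewest genes detected, 8119. The members' calls between ages, given below with edgeR's quasi-likelihood test and Benjamini-Hochberg adjustment over all tested genes at 0.05, were the same without it. Without that library, the log2 change from 14 to 20 weeks was -1.44 for Ltf, -1.59 for Lcn2, -0.74 for Camp, -0.90 for Ngp and -0.96 for Lyz2, and from 20 to 26 weeks 1.19, 2.68, 2.59, 1.69 and 1.35 in the same order.

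The 5 genes took a large part of the messenger RNA at every age. Their summed counts made up 15.2 ± 2.87% of a library at 14 weeks, 7.79 ± 2.96% at 20 weeks and 20.5 ± 3.07% at 26 weeks (SD, n = 6). The lowest, median and highest libraries stood at 11.6, 15.5 and 19.4% at 14 weeks, 4.56, 7.65 and 12.1% at 20 weeks, and 15.5, 20.8 and 24.7% at 26 weeks. The 20 week mice were thus low, with 12.1% in the highest of them reaching into the range of the 14 week mice but not that of the 26 week mice. Ngp was the most abundant of all genes in each of the 18 libraries. Ltf ranked between 2 and 6 and Lyz2 between 2 and 4 in every library, Lcn2 between 4 and 46, and Camp between 8 and 180.

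Levels were also taken per kilobase of transcript, which does not correct for the change with transcript length between ages described below. On this scale the order of the 5 levels was Ngp, Lyz2, Ltf, Lcn2 and Camp at 14 and 20 weeks and Ngp, Lyz2, Lcn2, Ltf and Camp at 26 weeks. At 14 weeks the levels were 44871 ± 11047, 26539 ± 2255, 18463 ± 4005, 13835 ± 1964 and 3790 ± 1094 CPM per kb for Ngp, Lyz2, Ltf, Lcn2 and Camp (SD, n = 6). Neighbours in this order were separate at 14 weeks for Ngp and Lyz2, whose ranges were 30676 to 60072 and 23757 to 29358 CPM per kb, while Ltf (13396 to 23500) and Lcn2 (11110 to 16652) overlapped. At 20 weeks the levels were 24591 ± 9768 for Ngp, 13438 ± 4517 for Lyz2, 6654 ± 3651 for Ltf, 4804 ± 1673 for Lcn2 and 2278 ± 1260 for Camp, and every pair of neighbours in the order overlapped. At 26 weeks Ngp stood at 77649 ± 17833, Lyz2 at 35017 ± 8624, Lcn2 at 29529 ± 11499, Ltf at 15515 ± 4200 and Camp at 13716 ± 7632 CPM per kb. The ranges of Ngp and Lyz2 did not overlap at that age, and those of Lyz2 and Lcn2, Lcn2 and Ltf, and Ltf and Camp did. The ratio between the mean levels of Ngp and Camp, the most and the least abundant member per kilobase, was thus smallest at 26 weeks. From 14 to 26 weeks the log2 ratio of Ltf to Lcn2 differed by -1.26, and by -0.48 with the length offsets described below. That of Camp to Ngp differed by 0.88, and by 0.69 with the offsets.

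**Figure D1:**
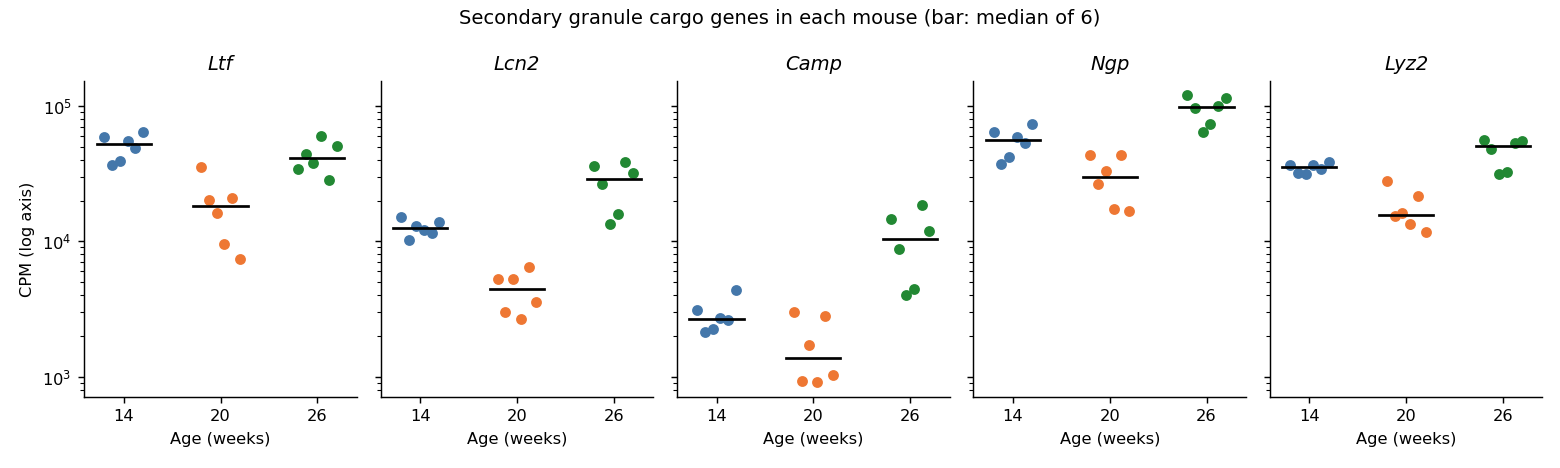
Level of each of the 5 granule cargo genes in CPM (TMM scaled, log axis) in every mouse at 14, 20 and 26 weeks, with a point for each mouse and a bar for the median of 6. All 5 genes have their lowest median at 20 weeks, and Camp at 26 weeks spans 3990 to 18641 CPM.

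From 14 to 20 weeks, 4 of the 5 genes fell, by 0.87 to 1.53 on the log2 scale, and Camp did not pass the test. Of all tested genes, 5.27% were called lower and 4.93% higher in this comparison (10.2% in all), and the median log2 change was -0.02, against -0.98 over the 5 genes. In 3 of the 5 genes every 20 week library was below every 14 week library, a separation seen in 3.93% of all tested genes, with 2.97% separate the other way. Of the 45 other genes among the 50 most abundant, 14 were called lower and 7 higher. In bulk samples, fewer cells of a type and less RNA per cell cannot be told apart.

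Lactoferrin transcripts (Ltf) had 36746, 52182 and 64461 CPM in the lowest, median and highest mouse at 14 weeks and 7377, 18165 and 35286 CPM at 20 weeks. Every 20 week mouse was below every 14 week mouse, and the log2 change was -1.47 ± 0.29 (SE; 95% interval -2.10 to -0.85, edgeR adjusted p = 0.00344). Lcn2, the siderophore trap, had 10166, 12596 and 15236 CPM at 14 weeks and 2644, 4442 and 6510 CPM at 20 weeks. The ages were again fully separate, with a log2 change of -1.53 ± 0.26 (-2.08 to -0.98, edgeR adjusted p = 0.00112). Lysozyme transcripts (Lyz2) had 31264, 35436 and 38635 CPM at 14 weeks and 11753, 15724 and 27689 CPM at 20 weeks. No mouse of one age lay in the range of the other, and the log2 change was -0.98 ± 0.20 (-1.40 to -0.56, edgeR adjusted p = 0.0034).

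Ngp had 37486, 56244 and 73408 CPM in the lowest, median and highest mouse at 14 weeks and 16751, 29829 and 43474 CPM at 20 weeks. Of the 20 week mice, 4 were below the whole 14 week range and 2 lay within it. Its log2 change was -0.87 ± 0.24 (SE; 95% interval -1.39 to -0.35, edgeR adjusted p = 0.0267). That call was lost in 6 of 18 fits that each left out 1 library (replicates 1, 4 and 6 of 14 weeks or 2, 4 and 6 of 20 weeks), with a log2 change between -1 and -0.75 and adjusted p up to 0.0685. It was also lost when only the 14 and 20 week libraries were fitted (adjusted p = 0.0536) and after the correction for transcript length described below (adjusted p = 0.0576). Camp, the cathelicidin gene, had 2134, 2670 and 4397 CPM at 14 weeks and 906, 1371 and 2990 CPM at 20 weeks. The ages overlapped, with 2 of the 20 week mice (2797 and 2990 CPM) above the 14 week median. The log2 difference of Camp was -0.73 ± 0.37 (-1.53 to 0.06, edgeR adjusted p = 0.25), an interval that holds both no difference and a fall as large as that of Lcn2.

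From 20 to 26 weeks all 5 genes rose, and Lcn2 and Camp stood about 6 times higher at 26 weeks (fitted folds 6.15 and 6.02). With the correction for transcript length described below these folds were 3.42 and 3.24. Of all tested genes, 8.03% were called higher and 7.98% lower between these ages (16.0% in all), with a median log2 change of 0.05, against 1.66 over the 5 genes. The ranges of 4 of the 5 genes did not overlap between the ages, a separation with 26 weeks higher seen in 3.69% of all tested genes, against 2.27% with it lower. Of the 45 other genes among the 50 most abundant, 12 were called higher and 11 lower. This comparison shares the 20 week libraries with the one above, so a low value at 20 weeks enters both.

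At 26 weeks Lcn2 had 13382, 29066 and 38826 CPM in the lowest, median and highest mouse, against a highest value of 6510 CPM at 20 weeks. The log2 change was 2.62 ± 0.27 (SE; 95% interval 2.05 to 3.19, edgeR adjusted p = 3.47e-05), and it stayed between 2.49 and 2.77 when any 1 library was left out. Camp had 3990, 10338 and 18641 CPM at 26 weeks, against a highest value of 2990 CPM at 20 weeks. Its log2 change was 2.59 ± 0.39 (1.75 to 3.43, edgeR adjusted p = 0.000368). Ngp had 64437, 98632 and 119668 CPM at 26 weeks, all above the 43474 CPM of the highest 20 week mouse. The log2 change of Ngp was 1.66 ± 0.25 (1.13 to 2.19, edgeR adjusted p = 0.000338).

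Lyz2 had 31278, 50704 and 55961 CPM in the lowest, median and highest mouse at 26 weeks, all above the 27689 CPM of the highest 20 week mouse. The log2 change of Lyz2 was 1.38 ± 0.20 (SE; 95% interval 0.96 to 1.80, edgeR adjusted p = 0.000239). Ltf had 28136, 41053 and 59893 CPM at 26 weeks, and it was the member whose ages overlapped. Of the 26 week mice, 4 were above the whole 20 week range, and the other 2 lay below the 35286 CPM of the highest 20 week mouse. The log2 change of Ltf was 1.22 ± 0.29 (0.60 to 1.84, edgeR adjusted p = 0.00714). None of these 5 calls was lost when any 1 of the 18 libraries was left out.

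Between the youngest and the oldest mice, which share libraries with both comparisons above, 3 of the 5 genes were called higher at 26 weeks (Camp, Lcn2 and Ngp) and none lower. All 3 calls were lost with the correction for transcript length described below, at adjusted p from 0.0794 to 0.721. Of all tested genes, 5.45% were called higher and 5.54% lower (11.0% in all), with a median log2 change of 0.04, against 0.79 over the 5 genes. With upper quartile factors in place of TMM factors, 62.0% of the calls over all genes were higher, against 49.6%. The ranges of the 2 ages overlapped for each of the 5 genes, while a separation with 26 weeks higher was seen in 2.90% of all tested genes, and with it lower in 3.86%. Of the 45 other genes among the 50 most abundant, 7 were called higher and 10 lower.

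The lowest, median and highest values of Camp were 2134, 2670 and 4397 CPM at 14 weeks and 3990, 10338 and 18641 CPM at 26 weeks, with 5 of the 26 week mice above the whole younger range. The log2 change of Camp was 1.86 ± 0.38 (SE; 95% interval 1.04 to 2.67, edgeR adjusted p = 0.0051). Lcn2 likewise had 5 of 6 older mice above the younger range, with a mean of 12659 ± 1797 CPM at 14 weeks and 27019 ± 10522 CPM at 26 weeks (SD, n = 6). The log2 change of Lcn2 was 1.09 ± 0.26 (0.55 to 1.64, edgeR adjusted p = 0.00984). Ngp went from 54833 ± 13499 to 94888 ± 21791 CPM, with a log2 change of 0.79 ± 0.24 (0.27 to 1.31, edgeR adjusted p = 0.0403). The Ngp call was lost in 8 of 18 fits that each left out 1 library (replicates 2, 3, 4 and 5 of 14 weeks or 1, 2, 5 and 6 of 26 weeks), with adjusted p up to 0.0939.

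Ltf and Lyz2 did not pass the test between the youngest and oldest mice. Ltf stood at 50645 ± 10986 CPM at 14 weeks and 42557 ± 11521 CPM at 26 weeks, a log2 difference of -0.25 ± 0.29 (SE; 95% interval -0.87 to 0.36, edgeR adjusted p = 0.694). It was the one member with a lower mean at 26 weeks than at 14 weeks. Lyz2 stood at 34925 ± 2968 and 46083 ± 11350 CPM, a log2 difference of 0.40 ± 0.19 (-0.01 to 0.81, edgeR adjusted p = 0.221). Limma-voom called Lyz2 higher at a log2 change of 0.44 (adjusted p = 0.0256).

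**Figure D2:**
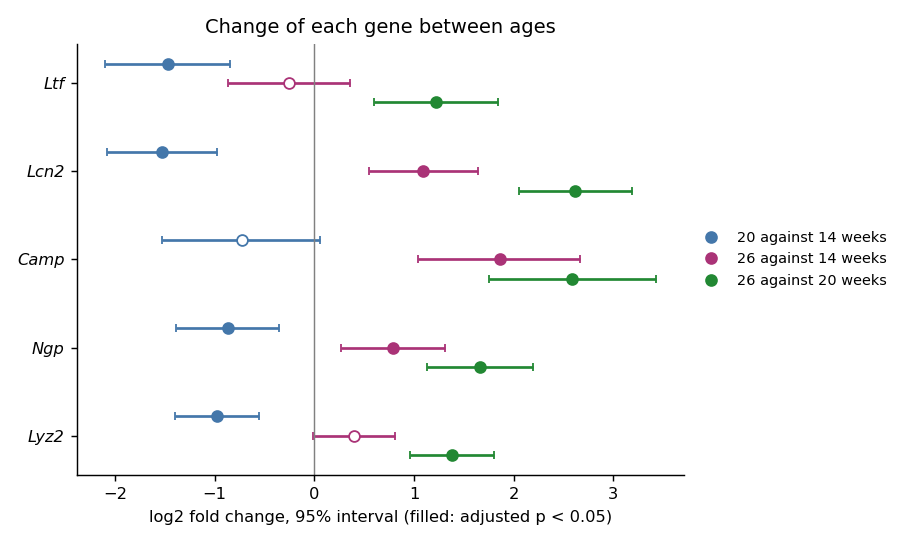
Fitted log2 change of each of the 5 genes between each pair of ages (x axis), with 95% intervals as bars and filled points for an edgeR adjusted p under 0.05. All 5 intervals lie above 0 for 26 against 20 weeks, and for 26 against 14 weeks those of Ltf and Lyz2 include 0.

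The comparison of 26 with 14 weeks moved with transcript length over all genes. Among tested genes, the median log2 change was 0.84 for transcripts under 1 kb, 0.38 for 1 to 2 kb, -0.05 for 2 to 3 kb, -0.25 for 3 to 5 kb and -0.18 above 5 kb. Between 20 and 26 weeks those medians were 0.67, 0.27, -0.04, -0.23 and 0.06, and from 14 to 20 weeks they were 0.06, 0.08, -0.01, -0.04 and -0.26. Set against genes of its own length class from 14 to 26 weeks, Camp was above 87.1% of them, Ngp above 73.5%, Lcn2 above 63.4%, Lyz2 above 51.4% and Ltf above 36.4%. Between 20 and 26 weeks the 5 genes were above 88.4 to 95.4% of genes of like length, with Lcn2 and Camp at 95.4 and 95.1%. Per library offsets by transcript length, an alternative chosen after seeing the data, gave 0 of 5 members called by edgeR between 14 and 26 weeks, with 1 at an unadjusted p under 0.05. Over all genes, edgeR called 295 with the offsets in this comparison, against 1111 without them. DESeq2 and limma-voom, run without the offsets, called 3 and 4 of the 5 members.

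With those offsets the log2 differences between 14 and 26 weeks were 1.01 for Camp (adjusted p = 0.0794), 0.35 for Lcn2 (adjusted p = 0.543) and 0.25 for Ngp (adjusted p = 0.721), and that of Lyz2 turned to -0.09 (adjusted p = 0.887). Between 20 and 26 weeks all 5 genes were still called, at log2 changes of 1.77 for Lcn2, 1.70 for Camp, 1.14 for Ltf, 1.01 for Ngp and 0.83 for Lyz2, with edgeR adjusted p from 0.00031 to 0.0105. Between 14 and 20 weeks Ltf, Lcn2 and Lyz2 were still called, at -1.30, -1.43 and -0.92. The offsets also shifted the median of all genes by over 0.1, to 0.19 from 14 to 20 weeks and to -0.19 from 20 to 26 weeks, and the share of calls that were higher to 73.4, 42.0 and 25.3% (from 48.3, 49.6 and 50.2%) for 20 against 14, 26 against 14 and 26 against 20 weeks. What the length pattern goes with was not tested.

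**Figure D3:**
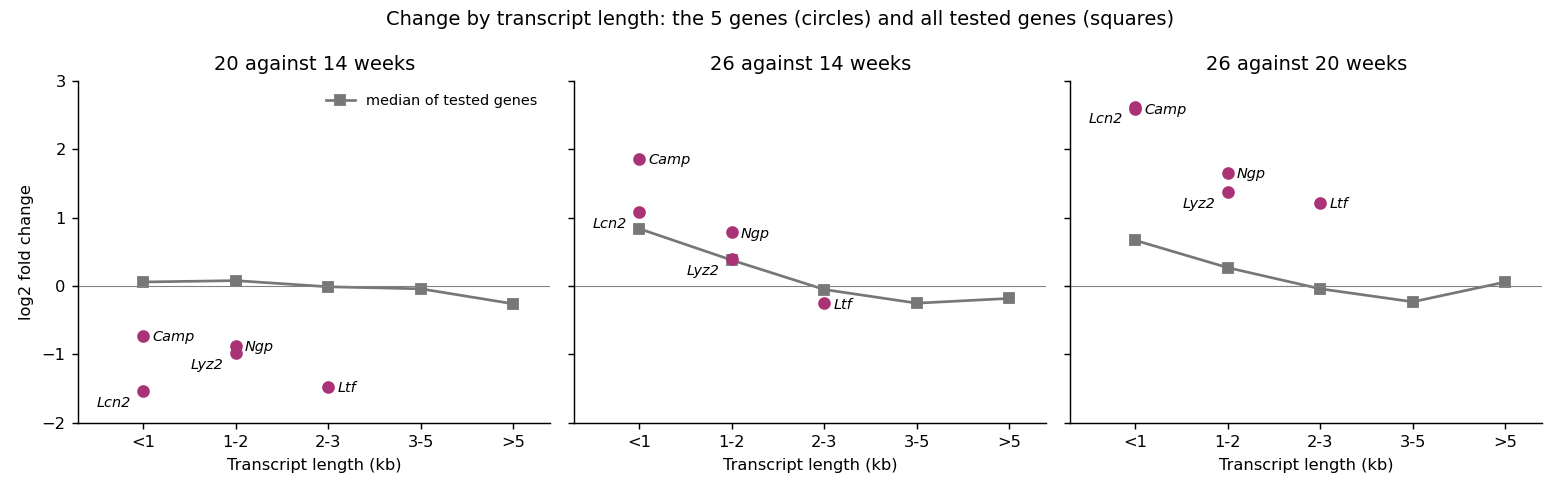
Median fitted log2 change of all tested genes (y axis, squares joined by a line) by class of transcript length in kb for each pair of ages, with the 5 members as circles at their own class. In 26 against 14 weeks the line drops from 0.84 to -0.25 over the first 4 classes, and Lyz2 (0.40) lies close to the median of its class (0.38).

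Ratios between members within a library do not depend on the scaling between libraries, and they show that the 5 genes did not move in step. They do depend on transcript length where the genes of a pair differ in it. For each of the 10 pairs the log2 ratio of counts was compared between ages by an exact permutation test (two-sided), adjusted over 30 tests. The test passed in 6 of 10 pairs from 14 to 20 weeks, 8 of 10 from 14 to 26 weeks and 6 of 10 from 20 to 26 weeks. With 6 mice against 6 the smallest exact p is 0.00216, and the smallest adjusted value seen was 0.00928. With the length offsets taken off each count, an alternative chosen after seeing the data, the exact permutation test passed in 5, 8 and 4 of 10 pairs, with a smallest adjusted p of 0.0162.

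The ratio of Ltf to Ngp was the tightest at 14 weeks, when the log2 ratio was -0.11 ± 0.05 (SD, n = 6), close to equal counts in every mouse. It was -0.80 ± 0.37 at 20 weeks and -1.17 ± 0.59 at 26 weeks, so Ltf had lost ground to Ngp at both later ages. The difference was -0.70 from 14 to 20 weeks and -1.06 from 14 to 26 weeks, both at an exact permutation adjusted p of 0.00928, and -0.36 from 20 to 26 weeks (adjusted p = 0.322). With the length offsets the difference from 14 to 26 weeks was -0.42 (exact permutation adjusted p = 0.0162). Ltf against Camp showed the largest difference of the 30, with log2 ratios of 4.15 ± 0.16 at 14 weeks, 3.40 ± 0.58 at 20 weeks and 2.21 ± 1.19 at 26 weeks. It fell by 1.95 from 14 to 26 weeks (exact permutation adjusted p = 0.00928), and the difference was -1.12 with the length offsets (adjusted p = 0.0162). From 14 to 20 weeks the Ltf to Camp ratio fell by 0.76 (adjusted p = 0.0306), a call lost without replicate 4 of 14 weeks or replicate 3 or 4 of 20 weeks, with exact permutation adjusted p up to 0.0535. From 20 to 26 weeks the difference of -1.19 did not pass (exact permutation adjusted p = 0.0767), and without replicate 4 of 26 weeks it passed at -1.5 (adjusted p = 0.0171).

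Lcn2 changed its standing between the later ages. Its log2 ratio to Lyz2 was -1.47 ± 0.17 at 14 weeks, -2.02 ± 0.37 at 20 weeks and -0.84 ± 0.27 at 26 weeks (SD, n = 6). The rise of 1.18 from 20 to 26 weeks and that of 0.63 from 14 to 26 weeks both had an exact permutation adjusted p of 0.00928, and the fall of 0.55 before them had 0.013. Lcn2 against Ngp went the same way, with a fall of 0.66 and then a rise of 0.86, each at an exact permutation adjusted p of 0.013. Camp rose against Lyz2 by 1.32 from 14 to 26 weeks (adjusted p = 0.00928) and by 1.15 from 20 to 26 weeks (adjusted p = 0.013), in the same exact permutation test. Against Ngp, Camp rose by 0.88 from 14 to 26 weeks (adjusted p = 0.00928) and by 0.83 from 20 to 26 weeks (exact permutation adjusted p = 0.0325). The last of these calls was lost without replicate 2, 3 or 4 of 20 weeks or replicate 1 or 5 of 26 weeks, with adjusted p up to 0.0581.

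The members of like transcript length also changed against each other. Lcn2 (915 bases) to Camp (758 bases) had log2 ratios of 2.17 ± 0.29, 1.46 ± 0.37 and 1.49 ± 0.29 at the 3 ages (SD, n = 6). Lcn2 thus lost ground to Camp from 14 to 20 weeks (-0.71) and from 14 to 26 weeks (-0.68), both at an exact permutation adjusted p of 0.013. The same ratio moved by 0.03 from 20 to 26 weeks (exact permutation adjusted p = 0.911). Ngp (1222 bases) to Lyz2 (1316 bases) had log2 ratios of 0.62 ± 0.25, 0.72 ± 0.27 and 1.05 ± 0.09, and rose by 0.43 from 14 to 26 weeks (exact permutation adjusted p = 0.013). It rose by 0.33 from 20 to 26 weeks (adjusted p = 0.0342), which did not pass in 6 fits without 1 library (replicate 4 of 20 weeks or any of replicates 1, 2, 3, 4 and 6 of 26 weeks), with exact permutation adjusted p up to 0.0684. The remaining pairs were those of Ltf with Lcn2 and with Lyz2. The Ltf to Lcn2 ratio fell by 1.26 from 14 to 26 weeks (adjusted p = 0.013) and by 1.22 from 20 to 26 weeks (adjusted p = 0.0357, up to 0.0804 and lost in 9 fits without 1 library, those without replicates 1 to 5 of 20 weeks or 1, 2, 5 and 6 of 26 weeks), by the exact permutation test. With the length offsets these differences were -0.48 (adjusted p = 0.0325) and -0.56 (exact permutation adjusted p = 0.136, not passed). The Ltf to Lyz2 ratio fell by 0.59 from 14 to 20 weeks (exact permutation adjusted p = 0.0284), and with the length offsets neither it (-0.47, adjusted p = 0.0505) nor the rise of Ngp against Lyz2 from 20 to 26 weeks (0.27, adjusted p = 0.116) passed.

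**Figure D4:**
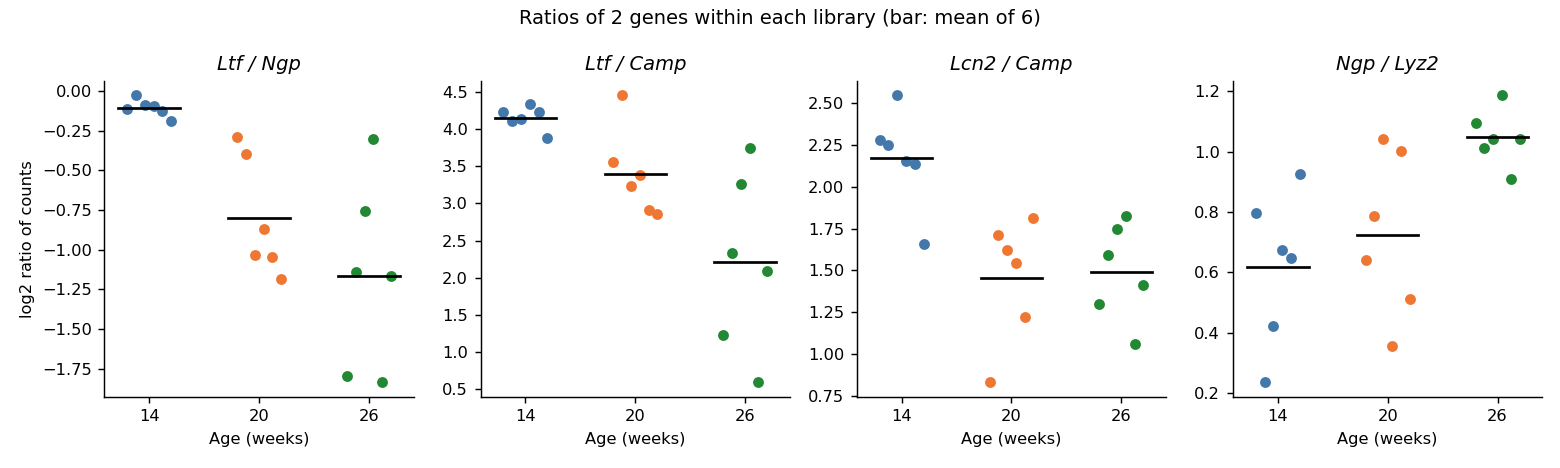
Log2 ratio of counts within each library (y axis) for 4 of the 10 pairs, Ltf to Ngp, Ltf to Camp, Lcn2 to Camp and Ngp to Lyz2, at 14, 20 and 26 weeks, with a point for each mouse and a bar for the mean of 6. The Ltf to Ngp ratio is tight around -0.11 at 14 weeks and wide at 26 weeks, and the mean Ltf to Camp ratio drops from 4.15 to 2.21.

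Within an age, the members' levels could also be compared from mouse to mouse. Pearson's r of log2 CPM over 6 mice was computed for the 10 pairs at each age, 30 relations in all, with exact permutation p. All 10 were positive at 14 weeks (0.563 to 0.997) and at 20 weeks (0.581 to 0.928), and 6 of 10 at 26 weeks (-0.588 to 0.992). The adjusted p for r passed in 6 pairs at each age, and that for Spearman's rho in 3, 0 and 2 pairs. At 14 weeks Ltf and Ngp had r = 0.997 and rho = 1 (exact permutation adjusted p = 0.0139 and 0.0167), and r = 0.986 without the 2 mice farthest from the median of Ltf. At 26 weeks Lcn2 and Camp had r = 0.992 and rho = 1 (exact permutation adjusted p = 0.0139 and 0.0167), and r = 0.991 without the 2 farthest mice. The 26 week relation of Camp with Ngp (r = 0.896, rho = 0.829, exact permutation adjusted p = 0.0463 and 0.0972) had r = 0.256 without the 2 farthest mice and rests on them. That of Lcn2 with Ngp (r = 0.939, rho = 0.829, exact permutation adjusted p = 0.0298 and 0.0972) had r = 0.383 without the 2 farthest mice and rests on them as well. In each pair the farthest mice were those farthest from the median of the first gene named. Camp with Lyz2 also weakened without them, from r = 0.903 to 0.504 at 20 weeks and from 0.953 to 0.67 at 26 weeks.

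The 4 pairs with a negative r were those of Ltf with each other member at 26 weeks. Ltf and Camp had r = -0.588 and rho = -0.6 (exact permutation adjusted p = 0.268 and 0.269), which did not pass, and r = 0.115 without the 2 farthest mice. By mouse at 26 weeks, replicate 5 had the highest Camp (18641 CPM) with the lowest Ltf (28136 CPM), and replicate 4 had the highest Ltf (59893 CPM) with 4461 CPM of Camp. Replicates 3 and 4 were the lowest for Camp, Lcn2, Ngp and Lyz2. Ribosomal RNA rows (30 symbols) took 0.169, 0.12, 0.0849, 0.0759, 0.0327 and 0.0514% of counts in replicates 5, 1, 6, 2, 4 and 3, the order in which Camp falls, so that the share moved with Camp in all but the last pair. That share was 0.0181 to 0.0216% at 14 weeks, 0.00905 to 0.0411% at 20 weeks and 0.0327 to 0.169% at 26 weeks. At 20 weeks replicate 1 had the highest Camp (2990 CPM) with the lowest share, and replicate 6 had the highest share with 1020 CPM of Camp. At 14 weeks replicates 6 and 1 had the most Camp (4397 and 3133 CPM) and the highest shares (0.0214 and 0.0216%). Replicate 5 also had the smallest library, 5546624 counts. The part of rRNA share or depth in the members' levels was not tested.

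Among the other secondary granule genes the calls at 20 weeks were all downward, and those at 26 weeks went both ways against 14 weeks. Of 11 tested genes of 14 on the list, 6 fell and none rose from 14 to 20 weeks, with a median log2 change of -0.64. Mmp8, the neutrophil collagenase, fell from 18608 ± 2180 to 7274 ± 2625 CPM (SD, n = 6), a log2 change of -1.36 ± 0.20 (SE, edgeR adjusted p = 0.000486). Cybb, the large subunit of the NADPH oxidase, fell from 3300 ± 554 to 1362 ± 509 CPM (-1.28 ± 0.22, edgeR adjusted p = 0.00112). Olfm4, which marks a subset of neutrophils, fell from 519 ± 99.8 to 238 ± 66.4 CPM (-1.13 ± 0.21, edgeR adjusted p = 0.0021). Between 20 and 26 weeks 5 rose and none fell, with a median of 0.53. The antibacterial gene Pglyrp1 rose from 1405 ± 291 to 3970 ± 1789 CPM (1.5 ± 0.24, edgeR adjusted p = 0.000504), and Cybb returned to 3033 ± 644 CPM (1.15 ± 0.22, adjusted p = 0.00132). Mmp8 was not among them, since its mean was 9357 ± 1190 CPM at 26 weeks.

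From 14 to 26 weeks 3 of the 11 genes rose (Orm1, Cyba and Pglyrp1), 1 fell (Mmp8) and the median log2 change was -0.12. Orm1, an acute phase glycoprotein gene, rose from 10.5 ± 8.24 to 70.6 ± 35.6 CPM (2.75 ± 0.56, SE, edgeR adjusted p = 0.00492). Mmp8 had a log2 change of -0.99 ± 0.20 (edgeR adjusted p = 0.00474), opposite in sign to those of Camp, Lcn2 and Ngp. Pglyrp1 lost its call in 5 of the 18 fits without 1 library (replicates 3, 4 and 5 of 14 weeks or 1 and 5 of 26 weeks), with adjusted p up to 0.0706. With the offsets for transcript length Cyba and Pglyrp1 were not called from 14 to 26 weeks, at log2 differences of 0.11 and 0.03, nor was Cybb from 14 to 20 weeks (-0.80, adjusted p = 0.088). Chil1 also lost its call from 14 to 20 weeks and Cyba from 20 to 26 weeks. Pglyrp1 was called lower from 14 to 20 weeks with the offsets only (-0.56, edgeR adjusted p = 0.0491). Over the list, the offsets gave 0 higher and 5 lower from 14 to 20 weeks. They gave 1 and 1 from 14 to 26 weeks, and 4 and 0 from 20 to 26 weeks.

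Of the primary granule genes, whose cargo is made earliest, 6 of 11 had enough counts to be tested. Mpo, Elane, Prtn3, Ctsg and Bpi were the ones not tested. From 14 to 20 weeks 1 fell (Serpinb1a, an inhibitor of the granule serine proteases, from 1111 ± 234 to 543 ± 261 CPM, -1.03 ± 0.26, edgeR adjusted p = 0.0153). From 20 to 26 weeks Serpinb1a rose to 1468 ± 292 CPM (1.43 ± 0.26, edgeR adjusted p = 0.00124), and so did the ficolin gene Fcnb, from 28.9 ± 17.9 to 142 ± 51.5 CPM (2.29 ± 0.53, adjusted p = 0.00533). Fcnb was the 1 gene called from 14 to 26 weeks, at 2.74 ± 0.54 (edgeR adjusted p = 0.00389). With the length offsets none of these calls was lost, and Ctsc was called lower from 20 to 26 weeks (-1.27, edgeR adjusted p = 0.0464). The median log2 changes over the 6 genes were 0.25, 0.66 and 1.55 for 20 against 14, 26 against 14 and 26 against 20 weeks. Of the tertiary granule and secretory vesicle genes, which are made last, 13 of 15 were tested. At 20 against 14 weeks 1 was higher and 7 lower (median -0.67), at 26 against 14 weeks 2 and 5 (median -0.55), and at 26 against 20 weeks 3 and 2 (median -0.09).

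Within the tertiary list the direction at 26 weeks differed by gene. The gelatinase gene Mmp9 fell from 11615 ± 1547 to 7190 ± 1074 CPM between 14 and 20 weeks (log2 change -0.69 ± 0.15, SE, edgeR adjusted p = 0.00526) and stood at 6210 ± 1506 CPM at 26 weeks (-0.90 ± 0.15 against 14 weeks, adjusted p = 0.00155). The vanin gene Vnn3 had 41.1 ± 12.3 CPM at 14 weeks and 12.1 ± 2.85 CPM at 26 weeks (-1.77 ± 0.29, edgeR adjusted p = 0.00155). Wfdc21 went up with Camp, from 72.0 ± 33.8 CPM at 20 weeks to 855 ± 610 CPM at 26 weeks (3.57 ± 0.44, edgeR adjusted p = 9.91e-05). With the length offsets the falls of Mmp9 were not called (-0.44, adjusted p = 0.174, to 20 weeks and -0.73, adjusted p = 0.0523, to 26 weeks). Over the list, those offsets gave 3 higher and 3 lower from 14 to 20 weeks, 1 and 2 from 14 to 26 weeks, and 1 and 2 from 20 to 26 weeks. Itgam, Itgb2, Mmp25 and Mmp9 lost their calls against 14 weeks at both later ages.

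**Figure D5:**
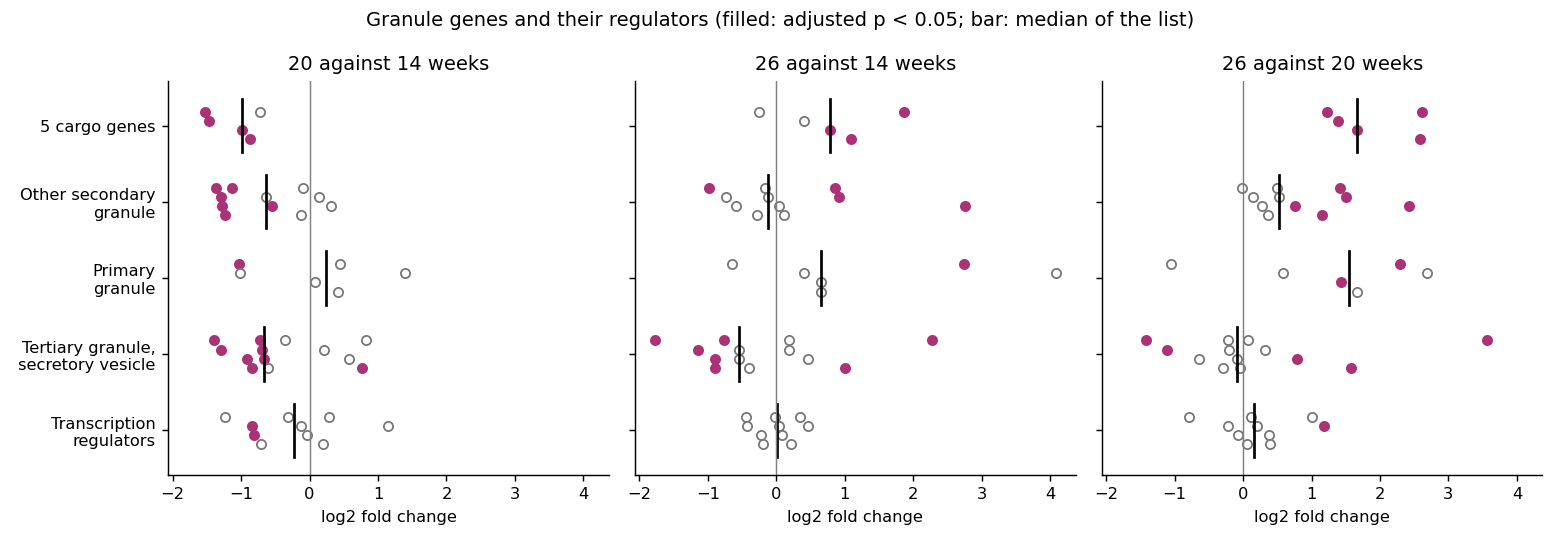
Fitted log2 change (x axis) of each tested gene of the 5 cargo genes, the other secondary granule genes, the primary granule genes, the tertiary granule and secretory vesicle genes and the transcription regulators, for each pair of ages. Filled points have an edgeR adjusted p under 0.05 and bars mark the median of a list, which for the other secondary granule genes is -0.64, -0.12 and 0.53 in 20 against 14, 26 against 14 and 26 against 20 weeks.

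Few transcription factors that act on granule genes were called. Of 10 tested regulators of 12 listed, 2 were called lower from 14 to 20 weeks (Klf5 and Ets1) with a median log2 change of -0.22, and 1 was called higher from 20 to 26 weeks (Cebpe) with a median of 0.16. Cebpe, the factor of secondary granule genes, had 207 ± 61.7, 127 ± 74.8 and 287 ± 67.2 CPM at the 3 ages (SD, n = 6), the same order of ages as Camp, Lcn2, Ngp and Lyz2. Its log2 difference was -0.71 ± 0.29 from 14 to 20 weeks (SE, edgeR adjusted p = 0.137) and 1.18 ± 0.29 from 20 to 26 weeks (adjusted p = 0.00874). With the length offsets the second value was 0.64 (adjusted p = 0.0986). Spi1, also on the list, was called lower from 20 to 26 weeks with those offsets only (-0.46, edgeR adjusted p = 0.0401). Klf5 had a log2 change of -0.84 ± 0.22 from 14 to 20 weeks (edgeR adjusted p = 0.0184), and Ets1 one of -0.81 ± 0.24 (adjusted p = 0.0404, lost in 13 of 18 fits without 1 library). Neither was called with the length offsets (adjusted p = 0.129 and 0.19). Between 14 and 26 weeks edgeR called 0 of the 10, with a median of 0.01, 0 of them had an unadjusted p under 0.05, and DESeq2 and limma-voom also called 0.

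Genes for receptors and processing of the cargo proteins often had few counts, and 4 of 8 were tested. Fpr2, a formyl peptide receptor gene whose protein also binds cathelicidin, had 335 ± 52.7, 187 ± 40.3 and 682 ± 310 CPM at 14, 20 and 26 weeks (SD, n = 6). It fell to 20 weeks (log2 change -0.84 ± 0.25, SE, edgeR adjusted p = 0.0335) and rose to 26 weeks (1.86 ± 0.25 against 20 weeks, adjusted p = 0.000168, and 1.02 ± 0.25 against 14 weeks, adjusted p = 0.0114). The fall was lost in 8 of 18 fits without 1 library, with adjusted p up to 0.0755, and the rise against 14 weeks was lost with the length offsets (adjusted p = 0.484). Tlr4, the endotoxin receptor, went the other way, at 67.7 ± 13.4, 154 ± 50.2 and 44.5 ± 19.5 CPM, up by 1.19 ± 0.27 and then down (-1.79 ± 0.28, edgeR adjusted p = 0.00774 and 0.000423). Itln1, whose product has been described as a lactoferrin receptor, was called higher at 20 weeks from 0.486 ± 0.589 to 6.29 ± 7.23 CPM (edgeR adjusted p = 0.0439), and 12 of 18 fits without 1 library did not call it. In this list 2 genes were higher and 1 lower at 20 than at 14 weeks, 1 higher and 1 lower at 26 than at 20 weeks, and 1 higher at 26 than at 14 weeks, with medians of 0.66, -0.87 and 0.33.

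Of 9 tested genes of cellular iron handling, 3 were higher at 20 than at 14 weeks and none lower, with a median log2 change of -0.06. Fth1, the ferritin heavy chain, rose from 3056 ± 954 to 5875 ± 1638 CPM (0.94 ± 0.24, SE, edgeR adjusted p = 0.0168). Ftl1, the ferritin light chain, rose from 2110 ± 640 to 4266 ± 845 CPM (1.02 ± 0.22, edgeR adjusted p = 0.00598). The iron exporter gene Slc40a1 rose from 1194 ± 137 to 2504 ± 687 CPM (1.07 ± 0.25, adjusted p = 0.00829) and then fell to 871 ± 393 CPM at 26 weeks (-1.52 ± 0.25, edgeR adjusted p = 0.000614). The ferritin genes were not called between 20 and 26 weeks (log2 differences -0.41 for Fth1 and -0.53 for Ftl1, edgeR adjusted p = 0.28 and 0.112). With the length offsets each was called lower between these ages (-1.23 for Fth1 and -1.32 for Ftl1, edgeR adjusted p = 0.0038 and 0.00123). From 20 to 26 weeks 2 of the 9 fell (Slc40a1 and Slc11a1) and none rose, with a median of -0.42. With the length offsets 4 rose from 14 to 20 weeks and 4 fell from 20 to 26 weeks, with no call the other way. Those offsets also moved the median of all genes, to 0.19 and -0.19 in these comparisons. Against 14 weeks, edgeR called 0 of the 9 at 26 weeks (median 0.04), 3 had an unadjusted p under 0.05, DESeq2 called 1 and limma-voom 2.

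Some genes of immature and dividing precursors were called lower at 20 weeks, and others had positive log2 differences from 14 weeks that did not pass, such as Tuba1b (1.5, edgeR adjusted p = 0.0503). Of 10 tested precursor genes, 3 fell from 14 to 20 weeks (median log2 change -0.39), 5 rose from 20 to 26 weeks (median 1.06) and 5 rose from 14 to 26 weeks (median 1.21), with no call the other way. With the length offsets 1 was called lower and 1 higher from 14 to 20 weeks, 3 higher from 20 to 26 weeks and 1 higher from 14 to 26 weeks (Tuba1b), where Birc5, Cenpa, Stmn1 and Tubb5 lost their calls. Cd24a, a surface antigen gene of immature neutrophils, had 1238 ± 118, 648 ± 205 and 1382 ± 211 CPM at 14, 20 and 26 weeks (SD, n = 6). It fell to 20 weeks (-0.93 ± 0.18, SE, edgeR adjusted p = 0.00258) and rose after (1.09 ± 0.18, adjusted p = 0.000622), and neither change of Cd24a was called with the length offsets (adjusted p = 0.0628 and 0.0589). The tubulin gene Tuba1b rose from 2.05 ± 1.69 CPM at 14 weeks to 11.8 ± 3.41 CPM at 26 weeks (2.52 ± 0.49, edgeR adjusted p = 0.0037). Top2a, a topoisomerase of dividing cells, had 0.803 ± 1.22 CPM at 14 weeks, 5.84 ± 1.56 CPM at 26 weeks and 0 counts in all 20 week libraries, where 3 counts over the 6 libraries would be 0.0486 CPM. The division genes were therefore detected at levels far below those of the members. Hmgb2, the other gene called lower at 20 weeks, had a log2 change of -0.42 ± 0.13 (edgeR adjusted p = 0.0446), lost in 13 of 18 fits without 1 library.

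Of 14 tested genes of mature neutrophils, 8 rose and none fell from 14 to 20 weeks (median log2 change 0.83), and 7 fell and none rose from 20 to 26 weeks (median -0.68). Fgl2, a prothrombinase gene, rose from 569 ± 329 to 3199 ± 1287 CPM (2.49 ± 0.44, SE, edgeR adjusted p = 0.00152) and fell to 761 ± 424 CPM (-2.07 ± 0.43, adjusted p = 0.00285). Csf3r, the receptor for the growth factor G-CSF, stood at 2027 ± 807, 4689 ± 1267 and 1439 ± 715 CPM at 14, 20 and 26 weeks (SD, n = 6), with edgeR adjusted p = 0.012 for the rise and 0.000915 for the fall. The cytokine gene Il1b rose from 638 ± 333 to 2574 ± 836 CPM between 14 and 20 weeks (2.01 ± 0.35, edgeR adjusted p = 0.00127) and had 1638 ± 703 CPM at 26 weeks. Between 14 and 26 weeks 3 of the 14 rose and 3 fell, with a median of 0.16, and all 6 calls were lost with the length offsets. With those offsets 9 rose from 14 to 20 weeks and 10 fell from 20 to 26 weeks, with no call the other way. The 3 gained from 20 to 26 weeks were Ccl6, Il1b (-1.16, edgeR adjusted p = 0.023) and Il1r2, where the median of all genes had moved to -0.19. Whether the proportion of immature to mature cells in the sort goes with the members' levels was not tested.

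Genes of other spleen cells were present at low levels, and some moved with age. The summed level of 7 B cell markers was 50.5 to 188 CPM at 14 weeks, 250 to 1973 at 20 weeks and 88.7 to 303 at 26 weeks, and that of 8 plasma cell markers was 129 to 186, 349 to 2075 and 184 to 689 CPM. In the plasma cell sum Xbp1 averaged 154, 321 and 220 CPM at the 3 ages, Jchain 0.195, 368 and 22.6 CPM, and Igkc 2.8, 271 and 129 CPM. The T cell sum was 117 to 150, 50 to 102 and 98.2 to 382 CPM. It was nearly all Cd3d (means 129, 70.4 and 200 CPM), since no other T cell marker averaged above 2.68 CPM at any age. The dendritic cell sum was at most 119 CPM and the eosinophil sum at most 78.5 CPM at any age. The NK, basophil and platelet sums were at most 13.2, 27.2 and 8.77 CPM, and the erythroid sum reached 254 CPM in 1 mouse of 26 weeks. For monocytes and macrophages, which also make Lyz2, the sum over 10 markers was 766 to 1000 CPM at 14 weeks, 805 to 1288 at 20 weeks and 757 to 1582 at 26 weeks. Csf1r, the macrophage growth factor receptor, and Adgre1, the F4/80 antigen, averaged 190 and 43.3 CPM at 14 weeks, 471 and 143 CPM at 20 weeks and 130 and 42.3 CPM at 26 weeks. Ly6c2, also on that list and expressed by neutrophils too, averaged 533, 169 and 863 CPM, lowest at the age at which Lyz2 was lowest. Of the 4 monocyte genes tested, 3 were called higher and 1 lower (Ly6c2) from 14 to 20 weeks, and 1 higher (Ly6c2) and 3 lower from 20 to 26 weeks. Ccr2, Cx3cr1, C1qa and C1qb were at 0 in all 14 week libraries, and C1qa and C1qb also in all 26 week libraries. The part of these cells in the members' levels was not tested. Lyz1, the paralog of Lyz2, held 5 to 222 counts in a library against 117057 to 551697 for Lyz2, so that reads shared between the copies could touch the Lyz1 values (log2 difference 1.67 ± 0.60 from 20 to 26 weeks, edgeR adjusted p = 0.0646) far more than those of Lyz2.

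Over all 18 libraries, the genes whose log2 CPM was most like that of each member differed by member. Among 4228 genes, those with the highest Pearson's r to Ltf were Tkt (0.971), Cep19 (0.97) and Adpgk (0.96). For Lcn2 they were Ly6g (0.992), Ly6c2 (0.977) and Gapdh (0.973), and for Lyz2 they were Arhgdib (0.983), Ly6c2 (0.979) and Mgst1 (0.971). For Camp they were Wfdc21 (0.982), Prdx5 (0.977) and S100a8 (0.975), and for Ngp they were Ly6g5b (0.961), Serpinb1a (0.961) and Tmed3 (0.96). Between members, r ran from 0.549 for Ltf with Camp to 0.954 for Lcn2 with Lyz2. Ltf had r of 0.688 with Lcn2, 0.773 with Ngp and 0.809 with Lyz2, while every pair without Ltf was at 0.901 or above. These values describe libraries that share their ages, depth and scaling, and carry no p.

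Camp, Ngp and Ltf lie within 1169654 bases of each other on chromosome 9, and 15 other tested genes start between them. From 14 to 20 weeks edgeR called 0 of the 15 (median log2 change 0.35), 1 had an unadjusted p under 0.05, DESeq2 called 0 and limma-voom 1. From 14 to 26 weeks 1 was higher (Mir6236) and 1 lower (Nbeal2), with a median of 0.24, and from 20 to 26 weeks 1 was higher (Mir6236), with a median of -0.14. DESeq2 and limma-voom called 2 and 2 of the 15 from 14 to 26 weeks, and 1 and 4 from 20 to 26 weeks, where 3 and 5 had an unadjusted p under 0.05. Mir6236, a short model at 110281287 to 110281409, averaged 21.9, 21.8 and 87.6 CPM at the 3 ages. The median share of ribosomal RNA rows was 0.02, 0.0307 and 0.0804% at these ages, and whether Mir6236 goes with it was not tested. Nbeal2, a gene of granule biogenesis, went from 135 ± 27.6 to 83.6 ± 18.6 CPM between 14 and 26 weeks (SD, n = 6), a log2 change of -0.69 ± 0.19 (SE, edgeR adjusted p = 0.0243). The Nbeal2 call was lost in 6 of 18 fits without 1 library (adjusted p up to 0.0776) and with the length offsets (adjusted p = 0.32).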

How the data were processed

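Per the labels' protocols, sorted neutrophils gave RNA by RNeasy Plus Micro, Nextera XT libraries used 1 ng of cDNA, and reads were single-end, 100 nt long. The authors deposited raw read counts per gene symbol, on GRCm38.p4, and the submitters' processing notes list STAR 2.4.2a, Trimmomatic 0.32, DESeq, DESeq2 1.12.3 and HTSeq 0.6.1 among the tools. Annotation, strand setting and filters: not given in the sources used here. Ages and replicate numbers came from the sample titles. Symbols were placed on GENCODE M21 models for 16820 of 17941 symbols, with the length of the principal transcript.

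Counts were tested with edgeR 4.0.16 (R 4.3.3): TMM factors, filterByExpr by age and robust quasi-likelihood F tests in 1 fit of 18 libraries with age as the only term, tested on simulated data first. Adjusted p (Benjamini-Hochberg over 10104 genes) under 0.05 was called. SE is the log2 change over the square root of F, and 95% intervals use 15 degrees of freedom. Log2 CPM used a prior count of 2, and ratios added 0.5 to each count. Library totals ran from 5546624 to 17256379 counts, reads without molecular identifiers, and the floor of 3 counts covers counting error only. Pairs of libraries of 1 age differed by more than counting error (chi-square per gene 26.1 to 182). The labels call the replicates biological and give no batch.

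The members, the gene lists and the tests were chosen with earlier results of these data known. Of each list, up to 4 called genes per comparison by smallest p could be named, with the called neighbours on chromosome 9, Lyz1, and the 3 genes of highest Pearson's r per member among genes whose log2 CPM averaged at least 4. Cebpe in the comparisons that did not call it, Top2a and the monocyte genes were named after their values were seen. Alternatives were RLE and upper quartile factors, factors without abundant genes and members, DESeq2 1.42.0, limma-voom (limma 3.58.1), other filters on low counts (none, or 10 CPM in 6 libraries), only the 2 ages compared, a replicate block, 10 added to each count in ratios, each library left out in turn, and, chosen after seeing the data, length offsets from a curve per library.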

Additional observations from a re-analysis of the deposited data

How the results depend on the processing

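The rise of all 5 genes from 20 to 26 weeks and the fall of Ltf, Lcn2 and Lyz2 from 14 to 20 weeks kept direction and call under each alternative run. Without 1 library at a time, log2 changes from 14 to 20 weeks ran from -1.77 to -1.31 (Ltf), -1.67 to -1.42 (Lcn2), -0.96 to -0.57 (Camp), -1 to -0.75 (Ngp) and -1.16 to -0.89 (Lyz2). From 14 to 26 weeks they ran from -0.38 to -0.14, 0.98 to 1.26, 1.62 to 2.05, 0.70 to 0.91 and 0.36 to 0.52, and from 20 to 26 weeks from 1.06 to 1.52, 2.49 to 2.77, 2.34 to 2.82, 1.53 to 1.79 and 1.29 to 1.55, in the same order. Genes called over all tested numbered 702 to 1263, 652 to 1544 (lowest without replicate 1, 2 or 6 of 26 weeks, at 652, 733 and 726) and 1141 to 1911. Ratios called from 20 to 26 weeks numbered 3 to 6. The Lcn2 to Camp ratio from 20 to 26 weeks (-0.09 to 0.12) and the Camp to Ngp ratio from 14 to 20 weeks (-0.01 to 0.19), neither called, changed sign. With length offsets 5, 8 and 4 ratios were called for 20 against 14, 26 against 14 and 26 against 20 weeks, against 6, 8 and 6.

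The fall of Ngp from 14 to 20 weeks missed the threshold with only the 2 ages compared (-0.86) and with length offsets (-0.77). From 14 to 26 weeks length offsets left 0 members called, with log2 differences of 0.35 for Lcn2, 1.01 for Camp, 0.25 for Ngp and -0.09 for Lyz2, and limma-voom called Lyz2 (0.44). All genes called, in the main analysis 1030, 1111 and 1617 for 20 against 14, 26 against 14 and 26 against 20 weeks, came to 1698, 1789 and 2553 with DESeq2, and for 26 against 14 weeks to 295 with length offsets, 2633 with limma-voom and 1710 with only the 2 ages compared. The cause was not tested. The replicate number as a block gave 962, 946 and 1573 genes and changed no member's call. Same-numbered libraries did not deviate together (18 pairs, r from -0.0527 to 0.136, 1 above 0.1), so the numbers do not pair the mice. With the replicate block 0 ratios were called in each comparison. The smallest exact p that its permutation test can give is 0.03125, and the smallest adjusted p seen was 0.067. Depth does not limit the members, which held at least 9714 counts in every library, and it limits genes of dividing and other cells.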
